A study of Mus musculus with 6 samples.

Results

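Elastic fibres and the microfibrils that scaffold them were followed here through 10 genes in newborn mouse osteoblasts and chondrocytes. The genes were Eln, Fbn1, Fbn2, Fbln1, Fbln2, Fbln5, Efemp2, Mfap2, Mfap4 and Mfap5, taken by symbol from a deposited RNA-seq table of 23364 gene symbols. They held 13 of the table's 31055 RefSeq transcripts, and RPKM, reads scaled to transcript length and sequencing depth, was added up over each symbol's transcripts. The osteoblast group was 3 libraries of GFP-sorted calvarial cells labelled Sp7 positive, with sample names that read Sp7-GFP, and the chondrocyte group was 3 libraries of rib cartilage cells labelled WT. The mice were C57BL/6 pups, 1 day old. Liberase TM freed the osteoblasts, and Pronase with Collagenase D freed the chondrocytes. Skeletal site, sorting, genotype label and enzyme all changed together with cell type and cannot be told apart from it. The labels do not say how the Sp7-GFP reporter was built or whether the libraries came from separate animals, so p-values measure the spread between these libraries only.

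An elastic fibre has a core of crosslinked elastin, made from the secreted monomer tropoelastin, which is laid down on a sheath of fibrillin microfibrils. Fibulins link the core to the sheath and bring in the lysyl oxidases that crosslink it, while small microfibril-associated glycoproteins decorate the fibrillin strands. Microfibrils also occur without elastin, in perichondrium, periosteum and growing cartilage among other tissues, where they hold latent TGF-beta and BMP in the matrix.

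Each library held an estimated 26900000 to 35900000 reads, worked back from steps in the low RPKM values. Groups were compared with limma on log2(RPKM + 1) over the 11218 genes that reached 1 RPKM in 3 or more of the 6 libraries, and a gene was called at an adjusted p under 0.05. Differences are osteoblast minus chondrocyte on that scale, which understates the change of genes at low RPKM. Markers followed the labels: 8 of 8 osteoblast markers were called higher and 9 of 9 chondrocyte markers lower in osteoblasts. Among all genes tested 55.5% were called higher and 13.5% lower. Bglap, Bglap2 and Dmp1 were under 1 RPKM in every chondrocyte library, and Matn1 in every osteoblast library. These could enter the test only through the other group, so their calls are no support for the labels. Chondrocyte replicate 3 stood apart from the other chondrocyte libraries, with Col1a1, the main bone and tendon collagen, at 7765 RPKM against 2270 and 2259 in replicates 1 and 2, and results that turn on it are given with and without it. In bulk samples, fewer cells of a type and less RNA per cell cannot be told apart.

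Eln was the most abundant of the 10 genes in osteoblasts, with a mean of 587 RPKM, and its libraries lay above those of every other gene in the group. Mfap2 (177 RPKM) and Mfap4 (140 RPKM) followed with overlapping ranges. Fbln2, Fbln1 and Efemp2, at 74.4, 70.8 and 61.9 RPKM, could not be ordered beyond their spread. Below them came Fbn1 and Fbn2, whose ranges also overlapped, then Fbln5, and Mfap5 was last at 1.43 RPKM. In chondrocytes the ranges of Eln, Mfap2 and Mfap4 ran into each other at the top, with means of 259, 154 and 137 RPKM. Efemp2 came next and Fbn1 after it, each clear of its neighbours. The lower end of the chondrocyte order, Fbn2, Fbln5, Fbln1, Fbln2 and Mfap5, was a chain in which each range overlapped the next. Fbln1 and Fbln2 thus stood among the middle genes in osteoblasts and among the low genes in chondrocytes.

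**Figure D1:**
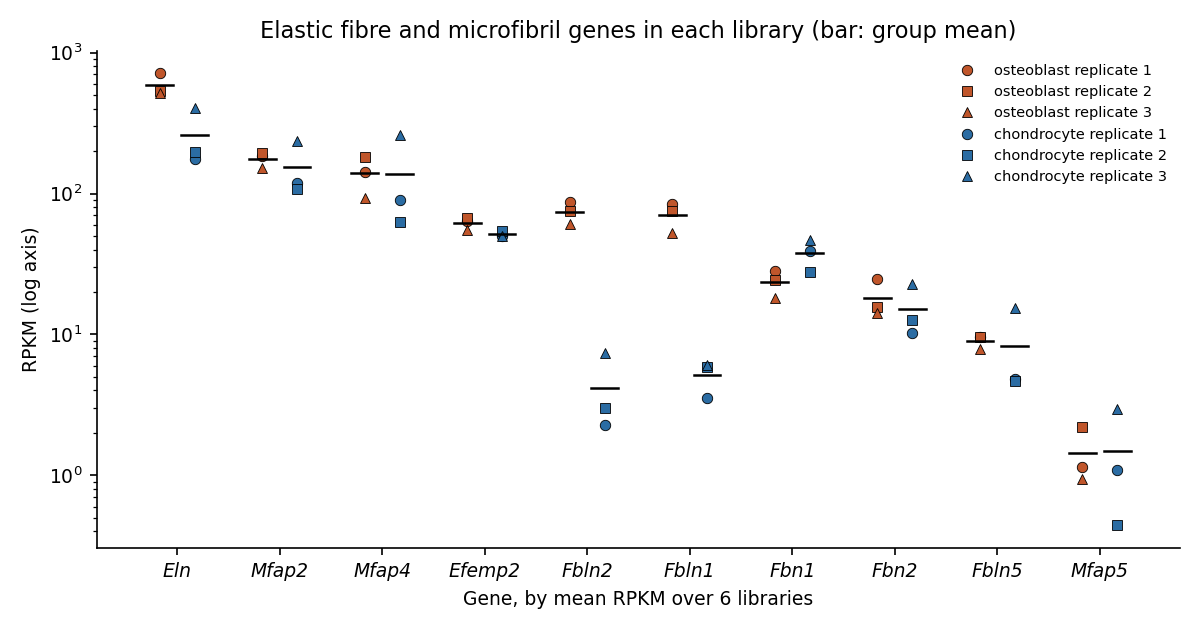
RPKM of the 10 genes on a log axis, ordered by their mean over 6 libraries; each point is 1 library (osteoblast left, chondrocyte right, one marker shape per replicate) and bars are group means. The osteoblast points of Fbln1 and Fbln2 lie far above the chondrocyte points, while those of Mfap2, Mfap4, Mfap5, Fbn2 and Fbln5 are intermingled.

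The fibulins Fbln1 and Fbln2 differed most between the cell types. Both are secreted glycoproteins that bind elastin, fibronectin and proteoglycans. Fbln1 had 84.1, 75.5 and 52.8 RPKM in osteoblasts, against 3.51, 5.91 and 6.09 RPKM in chondrocytes. The lowest osteoblast library was well above the highest chondrocyte library. Its mean of 70.8 ± 16.1 RPKM in osteoblasts was 13.7-fold the 5.17 ± 1.44 RPKM of chondrocytes (SD, n = 3 each), a log2 difference of 3.54 ± 0.23 (SE) with a limma adjusted p of 1.83e-05. Fbln2 had 86.3, 75.6 and 61.2 RPKM in osteoblasts, against 2.26, 3.0 and 7.33 RPKM in chondrocytes, again without overlap. Its means were 74.4 ± 12.6 RPKM in osteoblasts against 4.2 ± 2.7 RPKM in chondrocytes (SD, n = 3 each), a 17.7-fold ratio. The log2 difference of Fbln2 was 3.97 ± 0.33 (SE), with a limma adjusted p of 5.91e-05. Leaving out 1 library at a time kept Fbln1 between 3.33 and 3.74 and Fbln2 between 3.69 and 4.37, and both stayed called. Markers of fibroblasts, perichondrium and tendon went both ways between the groups. Of 14 listed, 12 were tested, and 7 were called higher and 2 lower in osteoblasts. That was near the background of all genes tested, with 55.5% called higher and 13.5% lower. Dpt, a dermal matrix protein, averaged 27.3 RPKM in osteoblasts against 0.20 RPKM in chondrocytes, and was one that could enter the test only through osteoblasts. Cd34 averaged 20.8 RPKM in osteoblasts against 1.02 RPKM in chondrocytes, and Thy1 averaged 71.3 RPKM in osteoblasts against 9.18 RPKM in chondrocytes. Tnmd and Col14a1 were the 2 called lower, and the list summed to 975 to 1641 RPKM in osteoblasts against 1030 to 3456 RPKM in chondrocytes, most of it Postn and Dcn, which were not called. The defining markers Pi16 and Clec3b were under 1 RPKM in every library. The part of such cells in the Fbln1 and Fbln2 values was not tested. At the estimated depths the smallest Fbln1 and Fbln2 values stood for 431 and 355 reads. The ratio of Fbln1 to Fbln2 was 0.974, 0.998 and 0.863 in osteoblasts, against 1.55, 1.97 and 0.831 in chondrocytes. These ratios overlap, and their log2 difference of −0.53 had an exact two-sided permutation p of 0.4 (0.8 adjusted over 4 gene ratios; 3 libraries a group allow no p below 0.1).

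Efemp2, Fbln2 and Mfap2 had 2 transcripts each in the table, and the other 7 genes had 1. The annotated Fbln2 transcripts differ by one exon, printed here because it is what the second transcript adds. It is exon 9 of 18, lies inside the coding region, and is 141 bases long, or 47 codons, so that skipping it keeps the reading frame. In GENCODE M21 it lies at chr6:91259630-91259770 on the plus strand of GRCm38, a later build than the mm9 of the deposited values.
Fbln2 exon: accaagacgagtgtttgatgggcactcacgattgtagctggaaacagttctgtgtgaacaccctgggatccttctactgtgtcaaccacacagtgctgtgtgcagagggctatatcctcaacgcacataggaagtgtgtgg
The transcript with this exon made up 15.3%, 14.9% and 11.2% of Fbln2 RPKM in osteoblasts, against 19.1%, 23.1% and 5.0% in chondrocytes. The chondrocyte shares lay on both sides of the osteoblast shares. At a summed RPKM of at least 5 in every library, where 3051 transcripts of all genes could be tested and 14.2% were called in limma, Fbln2 was too low in chondrocytes to enter. With the minimum at 1 it entered and was not called (limma adjusted p 0.948). Of Efemp2, the minor transcript took 10.9%, 10.4% and 9.98% in osteoblasts, against 11.5%, 6.74% and 9.79% in chondrocytes, and its share was not called. The main Mfap2 transcript held at least 97.6% in every library and its share was not called either. How the authors divided reads between transcripts is not given in the sources at hand.

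Eln was also higher in osteoblasts, though by far less. It encodes tropoelastin, best known from arteries, lung and skin. Eln had 713, 531 and 518 RPKM in osteoblasts, against 176, 198 and 404 RPKM in chondrocytes. The groups did not overlap, but chondrocyte replicate 3 lay closer to the lower osteoblast libraries than to the other chondrocyte libraries. Means were 587 ± 109 RPKM in osteoblasts against 259 ± 126 RPKM in chondrocytes (SD, n = 3 each), a 2.27-fold ratio with a log2 difference of 1.27 ± 0.31 (SE) and a limma adjusted p of 0.00880. Without chondrocyte replicate 3 the difference was 1.64 (limma adjusted p 0.000167). When libraries were scaled by median of ratios the Eln difference was 0.76 and its call was lost (limma adjusted p 0.0600). The call was also lost without the filter on low values (limma adjusted p 0.0755). Smooth muscle is the classic source of elastin. Of 9 listed markers of smooth muscle and pericytes, 7 were tested, and 5 were called higher and 1, Cspg4, lower in osteoblasts. Of all genes tested 55.5% were called higher and 13.5% lower. Cnn1, at or under 0.075 RPKM in every chondrocyte library, could enter the test only through osteoblasts. The 9 markers summed to 304 to 379 RPKM in osteoblasts against 111 to 135 RPKM in chondrocytes. Most of the chondrocyte sum was Cspg4, at 77.5, 111 and 68.7 RPKM. Within this list Acta2, smooth muscle actin, had 120, 154 and 115 RPKM in osteoblasts, against 2.43, 2.31 and 4.54 RPKM in chondrocytes, whereas Myh11, the smooth muscle myosin, stayed at or under 0.16 RPKM in all 6 libraries. None of 8 endothelial markers reached the test, and they summed to 1.07 to 3.57 RPKM in osteoblasts against 3.18 to 6.35 RPKM in chondrocytes. The part of these cells in the Eln values was not tested. In RefSeq, on GRCm38.p6, the long noncoding RNA Gm30003 overlaps Eln and Gm41741 overlaps Fbn2; the use of strand in counting is not stated, so their reads cannot be told apart from those of Eln and Fbn2.

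The fibrillins went another way. Fbn1, the main fibrillin of postnatal microfibrils and the gene mutated in Marfan syndrome, was lower in osteoblasts. Fbn1 had 28.1, 24.3 and 18.2 RPKM in osteoblasts, against 38.9, 27.7 and 46.8 RPKM in chondrocytes. The highest osteoblast library slightly exceeded the lowest chondrocyte library, so the groups overlapped. Means were 23.5 ± 4.96 RPKM in osteoblasts against 37.8 ± 9.59 RPKM in chondrocytes (SD, n = 3 each), a log2 difference of −0.65 ± 0.22 (SE) with a limma adjusted p of 0.0313. The call rested on several libraries: it was lost without osteoblast replicate 2 (−0.68, limma adjusted p 0.0693), osteoblast replicate 3 (−0.49, 0.108), chondrocyte replicate 1 (−0.62, 0.0860) or chondrocyte replicate 3 (−0.48, 0.0731). It was also lost without the filter on low values (limma adjusted p 0.163). The 3 other scalings of the libraries gave larger differences, −1.14, −1.05 and −1.07, all called.

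Fbn2, the fibrillin made mainly in embryonic tissues, was not called. It had 24.8, 15.6 and 14.1 RPKM in osteoblasts, against 10.2, 12.6 and 22.9 RPKM in chondrocytes. The groups overlapped widely, and the log2 difference of 0.28 had a 95% interval of −0.46 to 1.01 (limma adjusted p 0.450), with its sign negative under the 3 other scalings. The ratio of Fbn2 to Fbn1 was 0.883, 0.641 and 0.773 in osteoblasts, against 0.262, 0.454 and 0.489 in chondrocytes. Scaling a library by 1 factor does not change such a ratio, while quantile normalization can. Every osteoblast ratio was above every chondrocyte ratio. Their log2 difference was 0.97, with an exact two-sided permutation p of 0.1, the smallest this design can give, and 0.4 after adjustment over 4 ratios. In each of the 6 libraries Fbn1 was above Fbn2.

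Fbln5 and Efemp2, a gene also named fibulin 4, are the fibulins that elastic fibre assembly needs: the first tethers tropoelastin to microfibrils and cells, and the second brings lysyl oxidase to tropoelastin. Fbln5 had 9.62, 9.57 and 7.92 RPKM in osteoblasts, against 4.80, 4.68 and 15.5 RPKM in chondrocytes. The osteoblast libraries were close together, while chondrocyte replicate 3 was above all of them and the other chondrocyte libraries were below. Its log2 difference was 0.29 (95% interval −0.62 to 1.21, limma adjusted p 0.523), with its sign turning under the 3 other scalings, and without chondrocyte replicate 3 it was 0.80 and called (limma adjusted p 0.000992). Efemp2 varied little. It had 64.0, 66.5 and 55.3 RPKM in osteoblasts, against 50.1, 54.0 and 50.2 RPKM in chondrocytes. The groups did not overlap, yet the log2 difference of 0.26 ± 0.11 (SE) missed the threshold (limma adjusted p 0.0654) and its sign turned under the 3 other scalings. It passed in limma voom on the recovered reads (0.24, adjusted p 0.0485). The ratio of Fbln5 to Efemp2 was 0.150, 0.144 and 0.143 in osteoblasts, against 0.0957, 0.0867 and 0.308 in chondrocytes, with no order between the groups (exact permutation p 1).

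The 3 Mfap genes were not called. Mfap2 and Mfap5 encode small glycoproteins that bind fibrillin, and Mfap4 encodes a fibrinogen-related protein found on elastic fibres. Mfap2 had 184, 194 and 152 RPKM in osteoblasts, against 119, 107 and 235 RPKM in chondrocytes, and its log2 difference was 0.28 (95% interval −0.40 to 0.96, limma adjusted p 0.404). Mfap4 had 143, 182 and 93.4 RPKM in osteoblasts, against 89.4, 62.4 and 258 RPKM in chondrocytes, and its log2 difference was 0.25 (−0.94 to 1.44, limma adjusted p 0.678). In both, chondrocyte replicate 3 was the highest of all 6 libraries and the other chondrocyte libraries were below every osteoblast library. Without it the differences were 0.64 for Mfap2 and 0.84 for Mfap4, both called (limma adjusted p 0.00656 and 0.0344). Mfap5 was close to the detection range of the test in both cell types, with 1.14, 2.21 and 0.945 RPKM in osteoblasts, against 1.10, 0.442 and 2.94 RPKM in chondrocytes. Its values rested on 22 to 159 reads, and its log2 difference was 0.06 (−0.80 to 0.91, limma adjusted p 0.90). The signs of all 3 differences turned negative under the other scalings, with no call. The ratio of Mfap5 to Mfap2 did not separate the groups (exact permutation p 1).

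All 10 genes passed the filter on low values, and limma called 3 higher (Eln, Fbln1, Fbln2) and 1 lower (Fbn1) in osteoblasts. Among all 11218 genes tested, 69% were called in one direction or the other, 55.5% higher and 13.5% lower in osteoblasts, so 4 calls in 10 genes was below that background. The median log2 difference was 0.28 over the 10 genes and 0.43 over all genes tested. The groups did not overlap for 4 of the genes, Eln, Fbln1, Fbln2 and Efemp2, all higher in osteoblasts, where 60.4% of all tested genes lay wholly higher and 15.3% wholly lower. The all-gene median moves with the scaling of the libraries. Median-of-ratios scaling shifted it by −0.44, left 30% of all genes called higher and 31.7% lower, and of the 10 genes called Fbln1 and Fbln2 higher and Fbn1 lower. Without chondrocyte replicate 3, limma called 6 of the 10 genes higher, where 57.1% of all genes tested were called higher, and Fbn1 was no longer called.

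**Figure D2:**
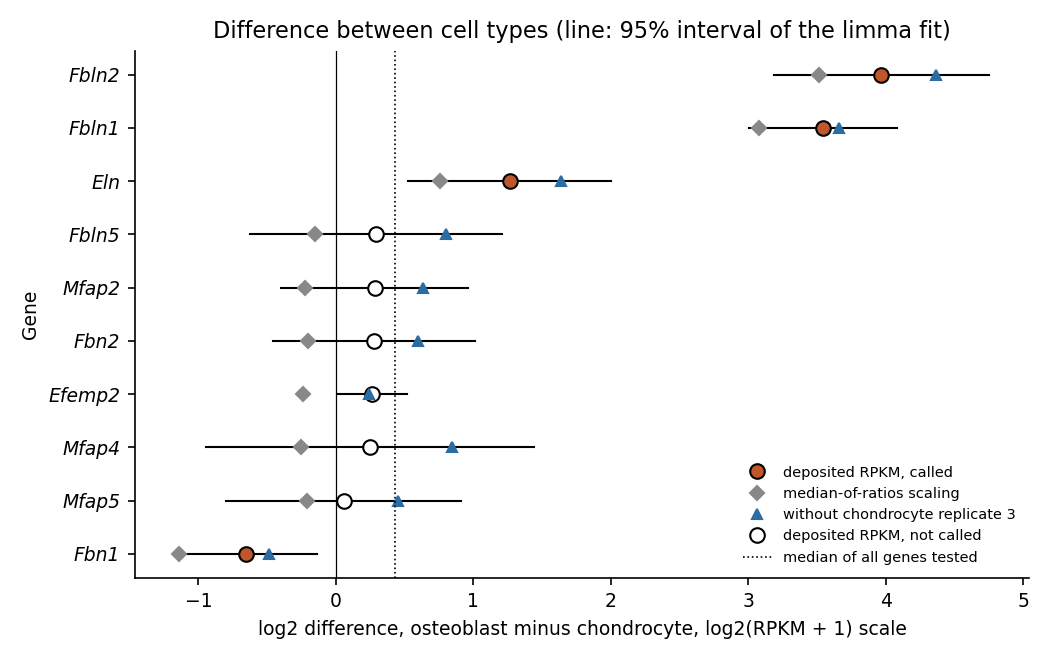
Log2 difference (osteoblast minus chondrocyte, log2(RPKM + 1) scale) of each gene with its 95% interval from limma; filled circles are called and open circles are not, diamonds show median-of-ratios scaling, triangles the fit without chondrocyte replicate 3, and the dotted line the median of all genes tested. Fbln1 and Fbln2 stay near 3 to 4 in each setting shown, whereas the diamonds of Fbn2, Fbln5, Efemp2, Mfap2, Mfap4 and Mfap5 fall below 0.

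Within the chondrocyte group, 9 of the 10 genes were highest in replicate 3, all except Efemp2. Among all genes tested 46.9% were highest there. The 10 genes had a median ratio of 2.12 between replicate 3 and the mean of replicates 1 and 2, against 1.10 over all tested genes. The ratio was 3.82 for Mfap5, 3.40 for Mfap4, 3.27 for Fbln5, 2.78 for Fbln2 and 2.16 for Eln. It was lower for Mfap2 (2.08), Fbn2 (2.01), Fbn1 (1.41) and Fbln1 (1.29), and 0.965 for Efemp2. The same list of fibroblast, perichondrium and tendon markers moved the same way: 10 of 14 were highest in replicate 3, with a median ratio of 1.66. Examples are Tnmd, a tendon membrane protein, at 4.31, Thy1 at 4.19, Col14a1 at 3.79 and Postn, a matricellular protein of periosteum and ligament, at 3.08. Chondrocyte markers went the other way, 0 of 9 being highest in replicate 3, with a median ratio of 0.626. Col2a1, the cartilage collagen, stood at 37318, 48028 and 26727 RPKM in chondrocyte replicates 1, 2 and 3. The part of such cells in the 10 genes' values was not tested. Among the osteoblast libraries, replicate 3 was the lowest for all 10 genes, as it was for 59.4% of all genes tested.

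**Figure D3:**
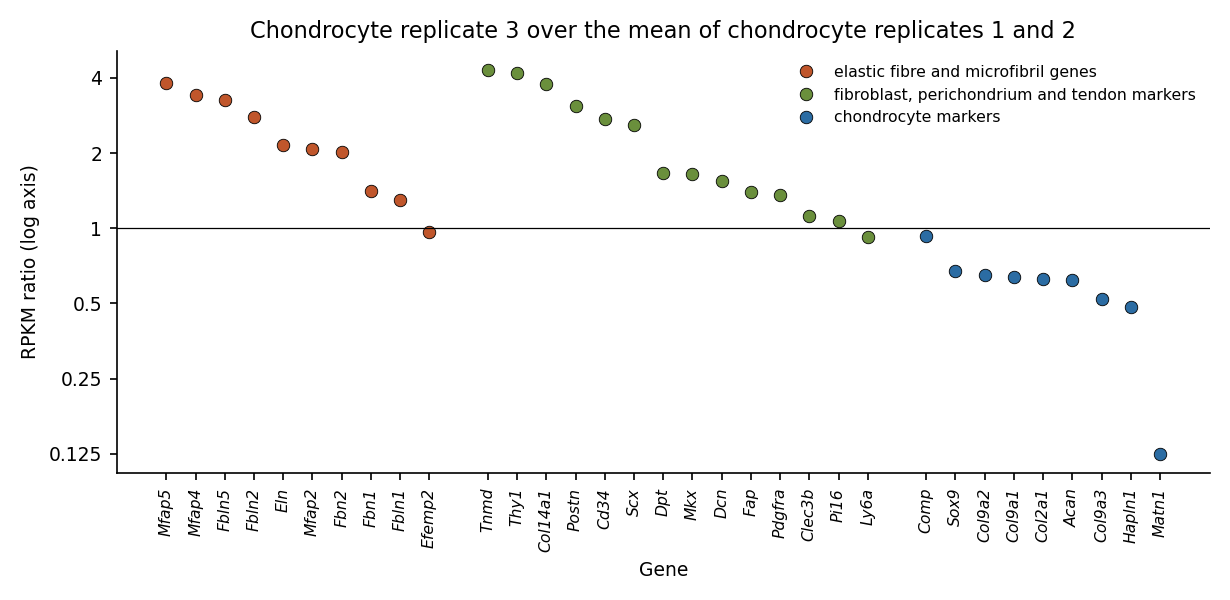
RPKM in chondrocyte replicate 3 divided by the mean of chondrocyte replicates 1 and 2 (log axis) for the 10 genes, 14 fibroblast, perichondrium and tendon markers and 9 chondrocyte markers. Of the 10 genes all but Efemp2 lie above 1, and the chondrocyte markers lie below 1.

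The make-up of the set differed between the cell types. The 10 genes summed to 1338, 1176 and 974 RPKM in osteoblasts, against 495, 475 and 1049 RPKM in chondrocytes, so chondrocyte replicate 3 lay within the osteoblast range. Eln alone made up 50.5 ± 4.67% of the sum in osteoblasts and 38.5 ± 3.03% in chondrocytes (SD, n = 3 each). Fbln1 and Fbln2 contributed 6.04 ± 0.541% and 6.39 ± 0.0943% in osteoblasts, and 0.845 ± 0.351% and 0.596 ± 0.12% in chondrocytes. Fbn1 was 2.01 ± 0.122% in osteoblasts and 6.05 ± 1.71% in chondrocytes. Mfap2 and Mfap4 together with Eln formed most of the set in both groups, Mfap2 at 15.3 ± 1.39% in osteoblasts and 23.0 ± 0.909% in chondrocytes. These shares are not independent, since they sum to the whole, and they were not tested.

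**Figure D4:**
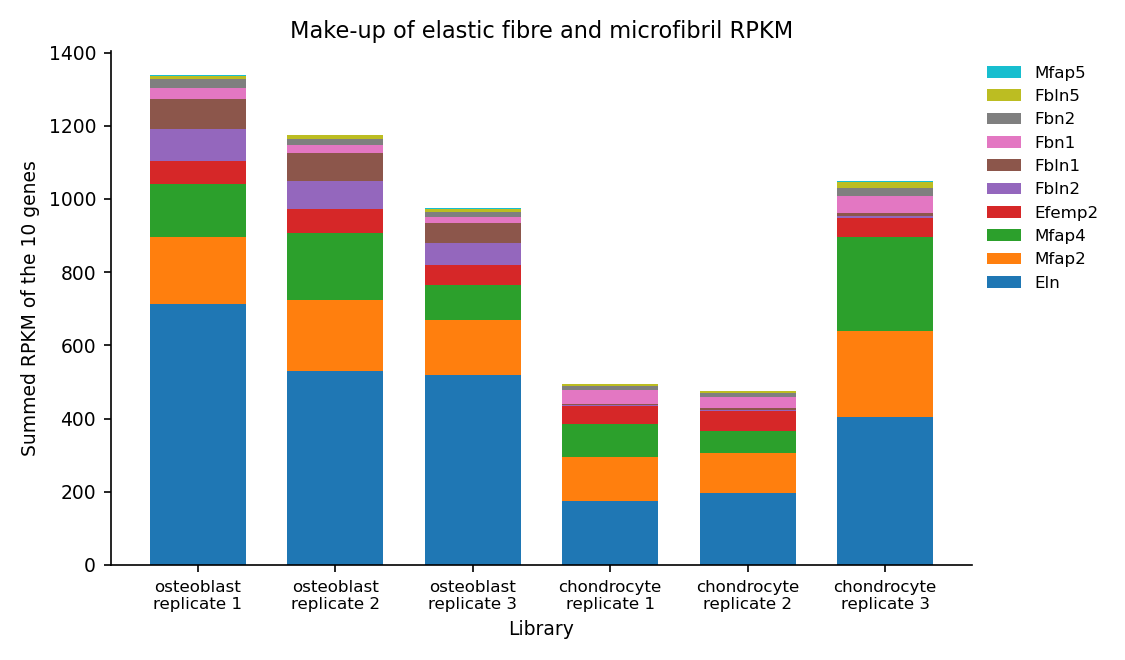
Summed RPKM of the 10 genes in each library, stacked by gene in the order of their mean level, osteoblast libraries left and chondrocyte libraries right. Eln is the largest block in every library, the Fbln1 and Fbln2 blocks are thin in chondrocytes, and the chondrocyte replicate 3 bar, at 1049 RPKM, falls within the osteoblast range.

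Genes that work with these 10 were taken from 8 lists of elastic fibre and microfibril biology holding 56 symbols. Of these, 45 were tested, 27 were called higher and 7 lower in osteoblasts, and 11 were not called, with a median log2 difference of 0.67. Over all genes tested 55.5% were called higher and 13.5% lower, with a median of 0.43, so the partner counts were near that background. For 9 of them, Hmcn1, Emilin2, Adamtsl5, Papln, Vcan, Mmp9, Ctss, Itga8 and Itgb3, every chondrocyte library was under 1 RPKM, so they could enter the test only by being higher in osteoblasts, and counts that hold them are no support for a direction. They also leave the test when any 1 osteoblast library is left out, and then 14 or 15 genes were called higher. Median-of-ratios scaling called 18 higher and 12 lower, where 30% of all genes were called higher and 31.7% lower.

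Among other microfibril-associated glycoproteins, 3 of 6 tested were called higher and 2 lower, where 55.5% of all genes tested were called higher and 13.5% lower. Hmcn1 and Emilin2, under 1 RPKM in every chondrocyte library, could enter the test only through osteoblasts. With any 1 osteoblast library left out, 1 of 4 tested was called higher and 2 lower. Emilin2, a glycoprotein related to the elastin-binding Emilin1, averaged 6.53 ± 1.25 RPKM in osteoblasts against 0.455 ± 0.164 RPKM in chondrocytes (SD, n = 3 each). Fbln7, another fibulin, averaged 2.18 ± 0.0986 RPKM in osteoblasts against 27.3 ± 12.4 RPKM in chondrocytes, a log2 difference of −3.07 ± 0.27 (SE, limma adjusted p 6.80e-05). It thus ran against Fbln1 and Fbln2. Emilin1 was abundant in both, at 143 ± 13.8 RPKM in osteoblasts against 122 ± 21.9 RPKM in chondrocytes, and was not called (limma adjusted p 0.201). Without chondrocyte replicate 3 all 6 tested genes of this list were called, 4 higher, Emilin1 among them, and 2 lower. Of the other genes with an Mfap symbol, Mfap1a and Mfap1b, near-identical copies whose reads could be split between them, are splicing proteins despite the name, and Mfap3 was not called (limma adjusted p 0.0621), though the 3 other scalings called it lower. Mfap1a (0.40) and Mfap1b (0.67) were called higher, and both calls were lost under median-of-ratios scaling, where Mfap1a stood at −0.02.

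Latent TGF-beta binding proteins, which anchor the growth factor to microfibrils, had 1 of 4 called. Of all genes tested 69% were called, 55.5% higher and 13.5% lower in osteoblasts. Without chondrocyte replicate 3, 2 of the 4 were called higher, where 57.1% of all genes tested were. Ltbp1 averaged 21 ± 2.4 RPKM in osteoblasts against 3.94 ± 2.79 RPKM in chondrocytes, a log2 difference of 2.29 (limma adjusted p 0.000793). Ltbp3 averaged 79.6 ± 8.72 RPKM in osteoblasts against 100.1 ± 31.8 RPKM in chondrocytes and was not called (limma adjusted p 0.319), though the other scalings called it lower. Of 10 tested Adamts, Adamtsl and other proteins that bind fibrillin, 4 were called higher and 2 lower. Adamtsl5, Papln and Vcan, all called higher, were under 1 RPKM in every chondrocyte library and could enter the test only through osteoblasts. With any 1 osteoblast library left out, 1 of 7 tested was called higher and 2 lower. Of all genes, 43.5 to 47.4% were then called higher. Without chondrocyte replicate 3, 5 of 10 were called higher and 2 lower. Adamtsl5 averaged 21.5 ± 3.56 RPKM in osteoblasts against 0.402 ± 0.0501 RPKM in chondrocytes (log2 difference 4.0, limma adjusted p 9.68e-07). Vcan, the proteoglycan versican, averaged 17.5 ± 2.96 RPKM in osteoblasts against 0.70 ± 0.31 RPKM in chondrocytes. Adamts10 was not called (−0.40, limma adjusted p 0.105), and the other scalings called it lower.

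Lysyl oxidases, the enzymes that crosslink elastin and collagen, were called in both directions, 3 higher and 2 lower of 5. Of all genes tested 55.5% were called higher and 13.5% lower. Lox averaged 215 ± 7.10 RPKM in osteoblasts against 68.6 ± 41.1 RPKM in chondrocytes, a log2 difference of 1.79 (limma adjusted p 0.00296). Loxl3 averaged 11.2 ± 0.70 RPKM in osteoblasts against 124 ± 51.2 RPKM in chondrocytes, a difference of −3.29 (limma adjusted p 4.22e-05). Loxl4 followed, at −2.05. The family members thus split between the cell types, Lox, Loxl1 and Loxl2 being called higher and Loxl3 and Loxl4 lower in osteoblasts. Loxl1 was marginal: its groups overlapped, at 72.5 ± 13.2 RPKM in osteoblasts against 43.5 ± 18.1 RPKM in chondrocytes (limma adjusted p 0.0406). Its call was lost without the filter on low values (limma adjusted p 0.186). Under each of the 3 other scalings 2 family members were called each way. The same counts were found with the replicate block, and without osteoblast replicate 1 or 2 or chondrocyte replicate 1 or 2. Of 5 genes for tropoelastin handling and fibrillin processing, 3 were called higher and 1 lower. Fkbp10, a chaperone of collagen and tropoelastin in the endoplasmic reticulum, averaged 252 ± 15.4 RPKM in osteoblasts against 180 ± 27.3 RPKM in chondrocytes (0.49, limma adjusted p 0.0141). The calls of Fkbp10, Neu1 and Glb1, all 3 that were higher, were lost under each of the 3 other scalings, with Fkbp10 and Glb1 both at −0.02 under median of ratios. Ctsa, which forms the elastin receptor complex with Neu1, was not called (limma adjusted p 0.123). Median-of-ratios scaling called it lower, as 1 of 2 of the 5 genes called lower there, where 31.7% of all genes were.

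Proteinases that can cut elastin had 5 of 6 tested genes called higher, where 55.5% of all genes tested were. Mmp9 and Ctss, under 1 RPKM in every chondrocyte library, could enter only through osteoblasts. Under median-of-ratios scaling 3 of 6 were called higher, against 30% of all genes. Mmp2 (limma adjusted p 0.295) and Ctsk (0.0914) lost their calls there. With any 1 osteoblast library left out, Mmp9 and Ctss left the test. Then 1 of 4 tested was called higher, where 43.5 to 47.4% of all genes were. Mmp14, a membrane metalloproteinase, averaged 426 ± 40.9 RPKM in osteoblasts against 148 ± 74.8 RPKM in chondrocytes, a log2 difference of 1.63 (limma adjusted p 0.00299). Mmp9 averaged 4.19 ± 0.947 RPKM in osteoblasts against 0.109 ± 0.0789 RPKM in chondrocytes. Mmp9 is also an osteoclast marker, and the osteoclast list of 7, which holds it and Itgb3, summed to 11.6 to 17.9 RPKM in osteoblasts against 2.78 to 3.23 RPKM in chondrocytes. Nearly all of that sum was Mmp9, Itgb3 and Acp5. The 4 others, Calcr, Ocstamp, Dcstamp and Oscar, were under 1 RPKM in every library. Markers of myeloid cells summed to 17.3 to 22.1 RPKM in osteoblasts against 1.36 to 8.31 RPKM in chondrocytes. The part of such cells was not tested. Ctsl, a lysosomal cathepsin, was not called (limma adjusted p 0.410). Without chondrocyte replicate 3, 6 of 6 tested proteinases were called higher, Ctsl among them, where 57.1% of all genes tested were. Integrins that bind fibrillin and Fbln5 were called higher in 6 of 6 tested genes, also under each of the 3 other scalings. Of all genes tested, 55.5% were called higher in the deposited values and 30 to 34.4% under those scalings. Itgb3 averaged 5.82 ± 0.591 RPKM in osteoblasts against 0.881 ± 0.0844 RPKM in chondrocytes. Itga8 averaged 4.85 ± 0.806 RPKM in osteoblasts against 0.783 ± 0.209 RPKM in chondrocytes. Both were among the genes that could enter only through osteoblasts, and the 4 others, Itgav, Itga5, Itgb1 and Itgb5, had RPKM of at least 9.46 in every library.

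**Figure D5:**
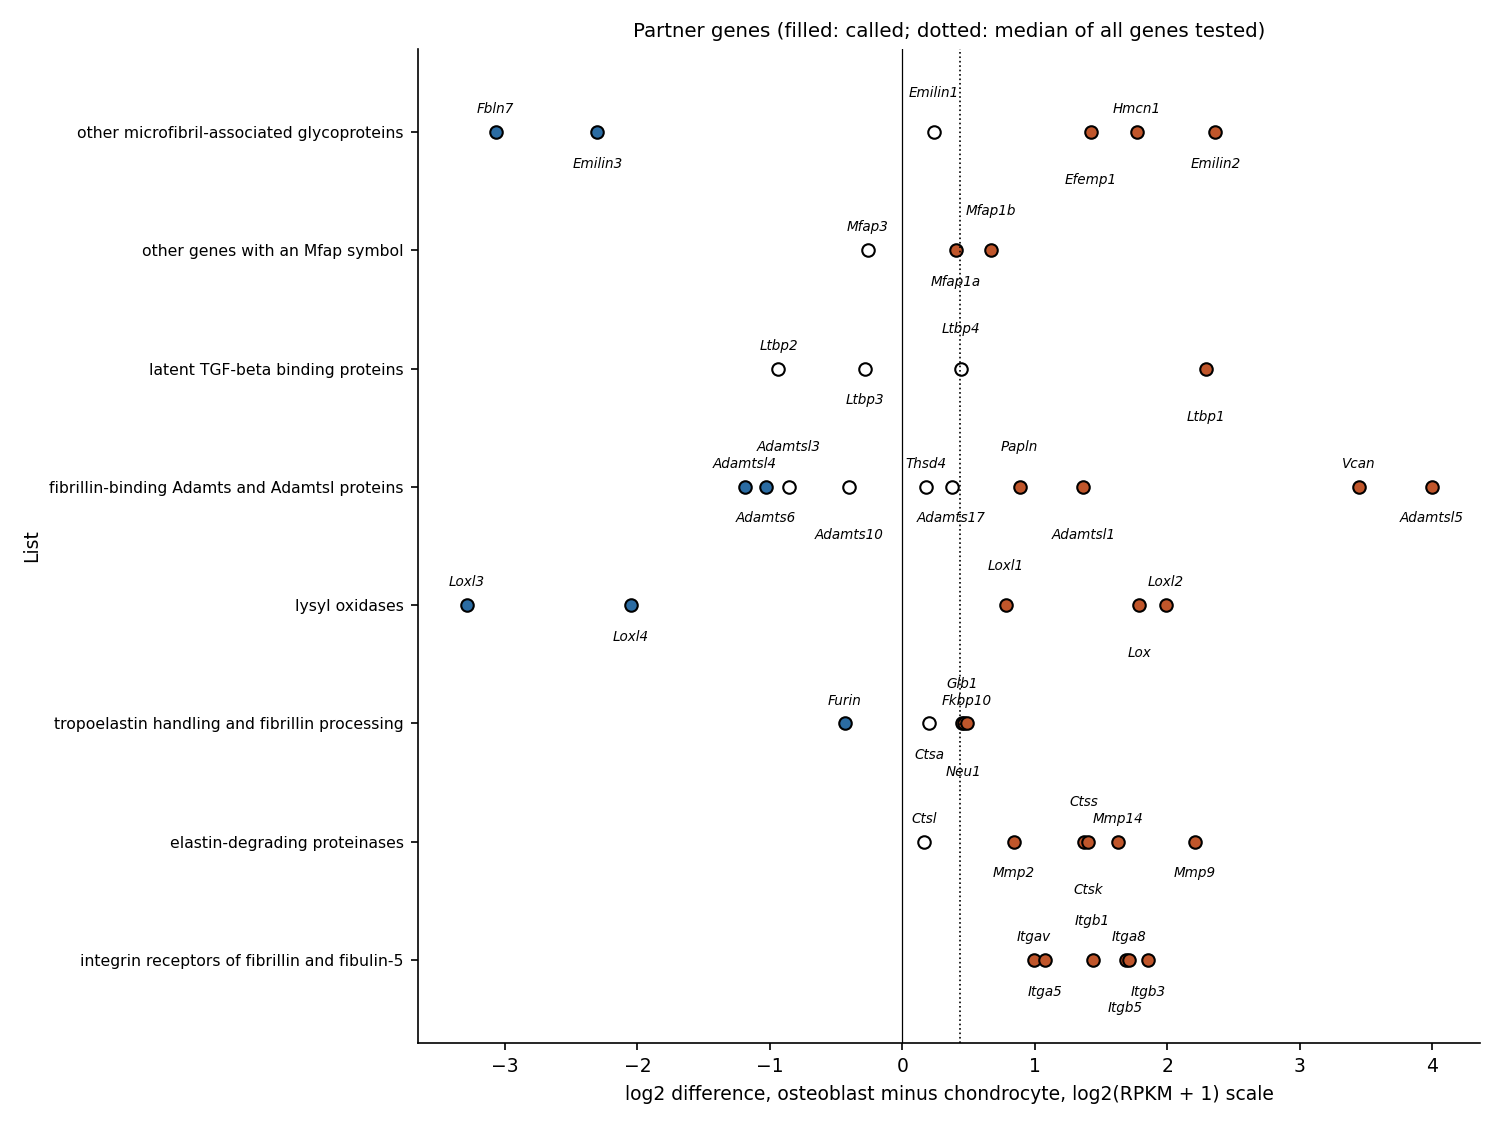
Log2 differences (osteoblast minus chondrocyte, log2(RPKM + 1) scale) of the 45 tested partner genes, one row per list; filled points are called (orange higher, blue lower) and open points are not, and the dotted line is the median of all genes tested. The integrins lie to the right of 0, while Fbln7, Emilin3, Loxl3 and Loxl4 lie far to the left.

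The profile of Eln over the 6 libraries was most like that of Col4a1, a basement membrane collagen, by Euclidean distance between centred log2(RPKM + 1) values (0.247). Col4a1 had 75.8, 59.1 and 49.5 RPKM in osteoblasts, against 19.1, 20.5 and 48.5 RPKM in chondrocytes. As with Eln, the chondrocyte library nearest the osteoblast range was replicate 3. Ntn3, Adamtsl1, Map6 and Tyrobp came next, at distances of 0.322, 0.329, 0.348 and 0.354.

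Promoter windows of 250 bases upstream of a RefSeq start on GRCm38.p6 were found for 6 of the 10 genes, 11 windows in all. They were searched on both strands for 5 motifs: a GC box (GGGCGG, in 32.7% of 32851 windows of all genes), a Runx site (TGTGGT, 14.0%), a homeodomain site (TAATTA, 4.84%), a Sox site (ACAATG, 10.7%) and an AP-1 site (TGANTCA, 6.75%). No window was found for Eln, also called higher in osteoblasts, or for Fbn2, Mfap4 and Mfap5. The windows of Fbln1 and Fbln2, called higher in osteoblasts, and of Fbn1, called lower, are shown because these are the called genes with a window. A GC box on either strand is in capitals. The Fbln1 window belongs to the second of a pair of annotated starts, at chr15:85205758-85206007 on the plus strand. The Fbln2 window lies at chr6:91212514-91212763 on the plus strand and the Fbn1 window at chr2:125506439-125506688 on the minus strand.
Fbln1: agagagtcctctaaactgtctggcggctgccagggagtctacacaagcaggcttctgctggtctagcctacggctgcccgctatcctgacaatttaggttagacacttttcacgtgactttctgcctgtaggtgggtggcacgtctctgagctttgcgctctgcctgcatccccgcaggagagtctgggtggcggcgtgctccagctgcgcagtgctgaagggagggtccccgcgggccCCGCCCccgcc
Fbln2: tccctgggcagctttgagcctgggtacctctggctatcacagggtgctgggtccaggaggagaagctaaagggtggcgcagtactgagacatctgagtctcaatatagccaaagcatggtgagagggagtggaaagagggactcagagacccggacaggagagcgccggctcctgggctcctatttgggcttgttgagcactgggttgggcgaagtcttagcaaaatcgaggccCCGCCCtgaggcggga
Fbn1: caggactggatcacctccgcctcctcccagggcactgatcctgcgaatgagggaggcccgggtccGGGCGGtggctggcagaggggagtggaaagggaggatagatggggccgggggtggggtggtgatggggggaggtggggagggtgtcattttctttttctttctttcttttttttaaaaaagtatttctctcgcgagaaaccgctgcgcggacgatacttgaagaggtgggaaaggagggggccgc
Each of the 3 windows shown holds 1 GC box, and none holds the Runx, Sox, homeodomain or AP-1 letters. The window of the first Fbln1 start, which overlaps the one shown, holds no GC box. Fbln5 was the only one of the 6 genes with a homeodomain match, in the window of its second start. A match is a description of the letters and no evidence of binding, and no difference between the genes that were higher and lower was tested.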

How the data were processed

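RNA-seq of 3 osteoblast and 3 chondrocyte libraries was used. The authors deposited 1 table of RPKM per RefSeq transcript, with a floor of 0.0001. TopHat2 2.0.8 and build mm9 are named in the submitters' processing notes; the counting program and its use of strand are not given in the sources used here. The members and lists were chosen with earlier results of these data known. RPKM was added up per symbol and tested as log2(RPKM + 1) with limma 3.58.1 in R 4.3.3 (variance trend, robust, two-sided, Benjamini-Hochberg over 11218 genes), which was tested on simulated data first. Named genes are the 10 members, the 2 largest called differences and the most abundant uncalled gene of each partner list, and the 5 profiles nearest Eln. Lox, the other integrins and lysyl oxidases, Emilin3, Col1a1 and the marker genes were named after their values were seen. Gene ratios were compared by exact permutation. Reads were estimated from RPKM steps and GENCODE M21 lengths of 29232 transcripts: 52.7 to 59.8% of low values were whole to within 0.05 (10% by chance), with totals fitted to the same values. Same-numbered libraries did not deviate together (correlations 0.0791, 0.00964 and −0.155). Promoter sequences are from RefSeq, GRCm38.p6. Alternatives were pseudocounts, filters, scalings, moderation, a replicate block, 1 transcript per gene, voom, and each library left out.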

Additional observations from a re-analysis of the deposited data

How the results depend on the processing

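Of 169 values of single genes under the alternatives, 156 kept their direction and their side of the threshold or were not called in either fit, 7 lost their call and 6 gained one, with no called value changing sign. The losses were those of Eln and Fbn1 and the gains those of Fbln5, Mfap2, Mfap4 and Efemp2 given above, Efemp2 also without osteoblast replicate 3 (0.34) or chondrocyte replicate 2 (0.29). Leaving out 1 library gave 3 to 6 of the 10 genes called higher, 0 to 1 called lower, 14 to 31 partner genes higher, 7 to 12 lower, and 4573 to 6313 of all genes higher and 1003 to 1635 lower; filtering then left fewer genes to test. With no filter, limma called 0 of the 10 genes lower, 0 also at an unadjusted p under 0.05, while voom called 1. Filtering at a mean of 5 RPKM left 6911 genes to test, of which 4092 (59.2%) were called higher and 885 (12.8%) lower. Median-of-ratios scaling, rescaling without the 50 most abundant genes and quantile normalization called 3342, 3852 and 3597 of all genes higher, against 6224 in the deposited values, and 3533, 3064 and 3456 lower, against 1512. They called 12, 11 and 11 partner genes lower, against 7. Left-out libraries moved the log2 ratio difference of Mfap5 to Mfap2 between −0.50 and 0.30 and that of Fbln5 to Efemp2 between −0.24 and 0.68. The cause of these shifts was not tested. With the replicate block, 3 genes were called higher and 1 lower, as without it; the libraries share only a number. Depth limits Mfap5 most.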
